A study of Mus musculus with 4 samples.

Results

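Small nucleolar RNAs (snoRNAs) are short nuclear RNAs that guide chemical modification of other RNAs, above all ribosomal RNA. In these data they were followed as the 110 gene symbols of the deposited expression table that begin with Snora or Snord and a digit, out of 23997 symbols in all. Of these, 36 were H/ACA members (Snora) and 74 were C/D members (Snord). The cells were mouse bone marrow mesenchymal stem/progenitor cells (MSPCs), cultured stromal cells, at passages 5 to 10 on a C57BL/6 background. Each genotype, wild type (WT) and Asxl1-/-, had 2 libraries, and Asxl1 encodes a chromatin regulator of the Polycomb system. The labels give no further detail of the Asxl1 allele. They name no animals either, so the spread behind each p-value is that between these 4 samples and may be technical. The series title places the comparison in the question of how Asxl1 loss affects self-renewal and cell fate of these cells.

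As background, H/ACA snoRNAs form hairpins, carry an ACA box near their 3′ end and guide pseudouridylation, bound by dyskerin (Dkc1), Gar1, Nhp2 and Nop10. C/D snoRNAs carry a C box and a D box and guide ribose methylation by fibrillarin (Fbl), with Nop56, Nop58 and the 15.5K protein (Nhp2l1). Most vertebrate snoRNAs are cut out of introns of other genes, many of them genes of ribosomal proteins, and they have no poly(A) tail of their own. C/D snoRNAs are as a rule shorter than H/ACA snoRNAs.

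The members at the centre of the results are printed here from the GENCODE M21 transcripts (build GRCm38, the same assembly as mm10), so that their length and boxes can be seen beside the values. Of the 110 members, 98 matched a GENCODE gene of the same symbol and place. The first 3 passed the test between the genotypes, and Snora31, Snora65, Snora78 and Snora81 were high or were above 0 in most libraries. In that build the H/ACA genes lie as follows: Snora15 at chr5:129794546-129794676 (plus strand), Snora69 at chrX:37082912-37083042 (minus strand), Snora47 at chr13:95330600-95330737 (plus strand) and Snora31 at chr14:75847905-75848034 (plus strand). Further members shown are Snora65 at chr2:32963291-32963420 (plus strand), Snora78 at chr17:24719676-24719803 (minus strand) and Snora81 at chr16:23110756-23110933 (plus strand). Capitals mark the last ACA within the final 10 bases, where there is one.
Snora15: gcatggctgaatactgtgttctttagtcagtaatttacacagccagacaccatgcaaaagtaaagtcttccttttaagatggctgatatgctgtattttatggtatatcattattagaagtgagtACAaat
Snora69: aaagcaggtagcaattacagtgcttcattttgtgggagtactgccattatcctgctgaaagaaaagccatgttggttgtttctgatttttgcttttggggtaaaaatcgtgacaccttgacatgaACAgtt
Snora47: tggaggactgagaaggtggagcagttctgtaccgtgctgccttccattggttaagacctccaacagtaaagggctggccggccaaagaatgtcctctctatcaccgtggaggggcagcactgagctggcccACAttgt
Snora31: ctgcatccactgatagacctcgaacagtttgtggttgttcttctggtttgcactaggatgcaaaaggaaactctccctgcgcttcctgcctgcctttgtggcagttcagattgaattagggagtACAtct
Snora65: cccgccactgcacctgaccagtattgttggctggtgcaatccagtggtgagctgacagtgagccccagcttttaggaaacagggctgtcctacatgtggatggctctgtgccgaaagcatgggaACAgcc
Snora78: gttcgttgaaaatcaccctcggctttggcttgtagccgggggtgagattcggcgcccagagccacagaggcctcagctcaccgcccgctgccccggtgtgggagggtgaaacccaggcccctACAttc
Snora81: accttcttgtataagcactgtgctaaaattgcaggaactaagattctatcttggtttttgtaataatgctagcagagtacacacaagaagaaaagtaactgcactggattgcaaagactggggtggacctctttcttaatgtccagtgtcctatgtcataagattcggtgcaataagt
The C/D members printed next are Snord22 and Snord15b, which had a value, and Snord33 and Snord35a, 2 of the snoRNAs within the ribosomal protein gene Rpl13a, which had none. They lie in the same build with Snord22 at chr19:8725866-8725991 (plus strand), Snord15b at chr7:99479563-99479707 (minus strand), Snord33 at chr7:45126864-45126947 (minus strand) and Snord35a at chr7:45126346-45126435 (minus strand). Capitals mark the first TGATGA (C box) and the last CTGA (D box), where these letters occur.
Snord22: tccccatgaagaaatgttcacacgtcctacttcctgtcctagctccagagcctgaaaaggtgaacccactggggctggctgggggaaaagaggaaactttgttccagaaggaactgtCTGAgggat
Snord15b: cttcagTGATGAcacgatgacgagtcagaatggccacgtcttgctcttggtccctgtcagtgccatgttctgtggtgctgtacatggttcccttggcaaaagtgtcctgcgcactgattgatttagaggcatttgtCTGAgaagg
Snord33: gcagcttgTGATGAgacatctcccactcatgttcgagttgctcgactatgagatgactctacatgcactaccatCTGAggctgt
Snord35a: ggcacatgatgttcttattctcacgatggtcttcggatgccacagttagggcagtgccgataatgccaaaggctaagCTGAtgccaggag
ACA stood in the final 10 bases, read on the transcript strand, in 31 of 33 matched H/ACA members (93.9%), in 7 of 65 C/D members (10.8%) and in 19.2% of 2202 GENCODE miRNA hairpins. TGATGA followed by CTGA stood in 43 of 65 C/D members (66.2%), in 0 of 33 H/ACA members and in 0.5% of the hairpins. Members with a value did not stand apart by this feature, since 12 of 13 matched H/ACA members above 0 held the ACA and so did 19 of 20 at 0.

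Expression is given in FPKM, the fragments counted on a gene divided by its length and by the depth of the library, and the libraries had FPKM sums of 497274 to 703662. Asxl1 itself stood at 14.6 and 11.2 FPKM in WT and at 0.273 and 0.312 FPKM in Asxl1-/-, in keeping with the labels. Of 12 mesenchymal markers, 10 or 11 reached 1 FPKM in each library. At most 1 of the 12 was at 0. The summed level of 12 macrophage markers was 7.32 and 543 FPKM in WT and 80.6 and 364 FPKM in Asxl1-/-, so it was far higher in replicate 2 of each genotype. Of these 12, 3 reached 1 FPKM in replicate 1 of either genotype and 12 in replicate 2. In Asxl1-/- replicate 1 Fcer1g alone held 72.2 FPKM, and the other 11 summed to 8.45 FPKM there and to 7.32 FPKM in WT replicate 1. In WT replicate 1, 3 of the 12 were at 0, and in the other libraries 0 were. The part of these cells in the results that follow was not tested.

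The number of fragments behind a value was recovered from low genes of ordinary length. Receptor genes of the Olfr, Taar, Vmn1r and Tas2r families with a span under 1200 bp are mostly silent in stromal cells. Of their values, 78 lay above a small floor, set well under the worth of 1 fragment, and lower values were left out. All 78 lay within 0.01 of a whole number of steps once multiplied by an effective length. The mean fragment and the step were chosen in each library to bring these same values closest to whole numbers. The mean fragment so chosen was 235 bp in each library. Taking the smallest step as 1 fragment, FPKM had been scaled to between 25300000 and 27300000 fragments, with the lowest and the highest both in Asxl1-/-. At that depth 1 fragment on a gene of 1000 bp was worth 0.0479 to 0.0516 FPKM.

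**Figure D1:**
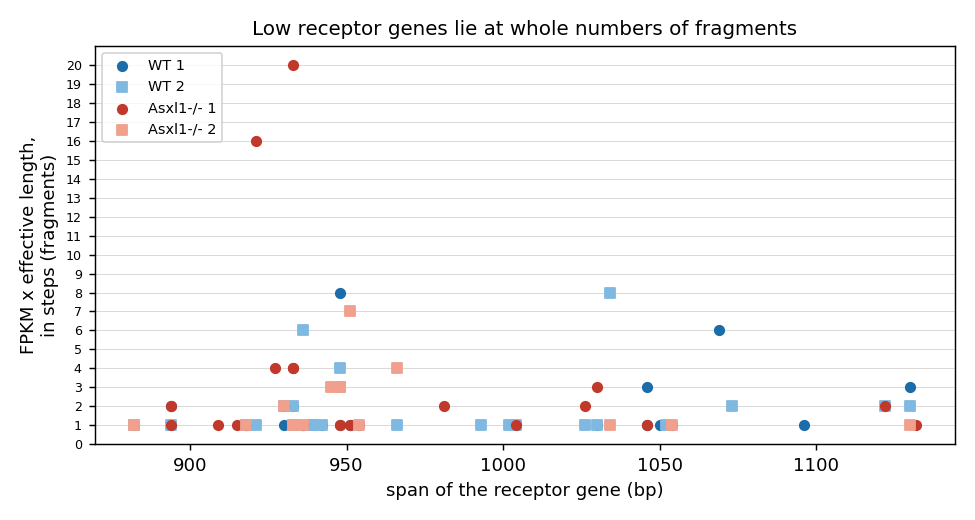
Low values of receptor genes in steps. The x axis gives the span of each gene in bp and the y axis the FPKM times the effective length, in steps taken as single fragments. There is 1 point for each gene and library above the small floor. All 78 values sit on whole numbers, from 1 to 20.

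Most snoRNA genes had no value at all. Of the 110 members, 92 were listed at 0 in all 4 libraries and 18 were above 0 in at least 1. Those 18 were 15 of the 36 H/ACA members and 3 of the 74 C/D members. Only Snora81 was above 0 in every library, 2 members were above 0 in 3 libraries, 8 in 2 and 7 in a single library. By library, 11 and 10 members were above 0 in WT and 6 and 6 in Asxl1-/-.

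Values were confined to rows above a certain span. The limit was set at 111 bp, the shortest span with more than 0.01 FPKM in any library, so it was read from these values. By that choice no row of the table with a span under 111 bp, out of 1052 symbols, held more than 0.01 FPKM in any library. This covers 70 of the 74 C/D members and 7 of the 36 H/ACA members, so for these the libraries say nothing of the RNA's level in the cells. From 111 bp upwards, 15 of 29 H/ACA members and 3 of 4 C/D members had a value above 0. Of 99 other symbols under 300 bp, 11 had a value, counted over 0.01 FPKM. The classes differed in span, with a median of 119.5 bp for H/ACA and 67.0 bp for C/D rows. Rows often stop short of the annotated RNA: in 82 of the 98 matched members the row was shorter than the GENCODE gene, by a median of 11.5 bp over all 98. For 8 members, among them Snora20 (61 bp in the table, 128 in GENCODE) and Snora61 (62 against 130), the row lay under 111 bp and the GENCODE gene did not.

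**Figure D2:**
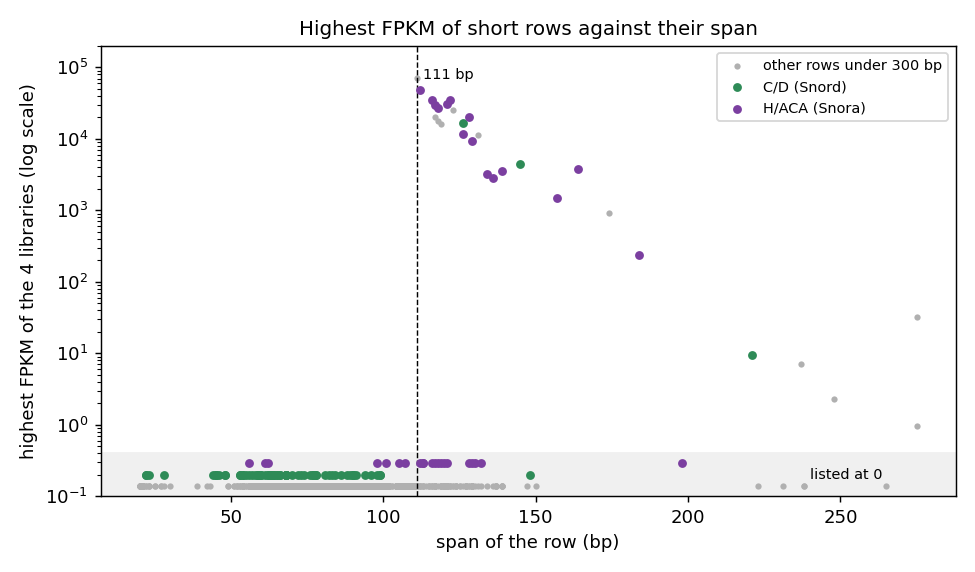
Highest FPKM of the 4 libraries (log scale) against span in bp, for every symbol with a span under 300 bp. Points in the grey band held at most 0.01 FPKM, at heights that separate the classes and have no meaning. The dashed line stands at 111 bp, the shortest span above the band. To its right the members run from 47616 FPKM for Snora31 (112 bp) to 9.57 FPKM for Snord17 (221 bp).

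Short length inflates FPKM, since few fragments can lie inside a row shorter than the mean fragment and each is divided by a very small effective length. The members above 0 ranged from 9.57 to 47616 FPKM and made up 10 of the 20 genes with the highest mean FPKM of the whole table. They held 21.9% and 27.1% of the FPKM sum of the WT libraries and 16.7% and 8.29% of that of the Asxl1-/- libraries. These shares rest on 6 to 11 members a library. They describe the scale and not the abundance of snoRNAs in the cells.

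Some values of the members were whole multiples of each other. Snora65 stood at exactly the 17940.3 FPKM of Scarna3a, a Cajal body RNA gene whose row is also 118 bp long, in Asxl1-/- replicate 2. In WT replicate 1, Snord22 stood at 2.00001 times the value of Snora47, both 126 bp long. Between the WT libraries, 6 members were above 0 in both, and their ratios, WT replicate 2 over WT replicate 1, were all within 4% of a whole number. They were 0.976 for Snora15, 1.01 for Snora78, 1.95 for Snora65, 1.95 for Snora69, 1.94 for Snora47 and 7.94 for Snora81. All ratios that involve an Asxl1-/- library lay more than 4% from the whole number they were judged against. They included 1.56 for Snora31 and 1.63 for Snora28, in Asxl1-/- replicate 1 over the WT library with a value. The nearest was 4.25 for Snora81 in Asxl1-/- replicate 2 over WT replicate 1, at 6.3% off. For Snord22 the ratio was 1.36 in Asxl1-/- replicate 2 over WT replicate 1. Ratios well under 1, such as 0.339 for Snora81 in Asxl1-/- replicate 1 over WT replicate 2, were not inverted before they were judged. Between the Asxl1-/- libraries only Snora81 could be compared, with a ratio of 1.58. How many fragments stand behind a value at these spans was not settled.

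The comparison of Asxl1-/- with WT was made by limma on log2(FPKM + 1) over all 11481 genes whose mean over the libraries reached 1 FPKM, with Benjamini-Hochberg adjustment at 0.05. All 18 members above 0 entered, and 92 did not. Of the H/ACA members 3 fell and 0 rose, and of the C/D members 0 passed in either direction (0 also at an unadjusted p under 0.05). Over all genes, 0.0261% fell, which were these same 3 members, and 0 of 11481 rose. All 3 are also the members with an unadjusted p under 0.05, against 5.41% of all genes for lower and 2.51% for higher values. A member entered this test only through a library in which it was above 0, so the count is no measure of how many snoRNAs changed.

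Snora15, an H/ACA RNA (chromosome 5, 129794561 to 129794676 in mm10), stood at 34867 and 34040 FPKM in WT and was listed at 0 in both Asxl1-/- libraries (limma adjusted p = 0.000599). The groups did not overlap, and the WT values lay at a ratio of 0.976. Snora69 (chromosome X, 37082912 to 37083033) stood at 17790 and 34593 FPKM in WT and was listed at 0 in both Asxl1-/- libraries (limma adjusted p = 0.00397). Its WT values differed more than those of Snora15, at a ratio of 1.95. Both ratios lie near whole numbers and the fragments behind them were not settled, so replicate agreement cannot be read from them. Snora47 (chromosome 13, 95330611 to 95330736) stood at 6126 and 11859 FPKM in WT and was listed at 0 in both Asxl1-/- libraries (limma adjusted p = 0.00418). No fold is given for the 3 members, since 1 group is at 0.

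These calls are those of values at 0 in both Asxl1-/- libraries, where the model sees no spread. The authors' deposited table tests the same 3 with Cuffdiff and marks none as significant: in that table the p-values are 0.0961 for Snora15, 0.0612 for Snora69 and 0.199 for Snora47. With no filter on low values only Snora15 passed, and without Asxl1-/- replicate 2 Snora47 did not (limma adjusted p = 0.0539). Leaving out 1 library brought in other calls. Among members, Snora16a and Snora52 joined without WT replicate 2, and Snora21 and Snora64 without WT replicate 1. Snora78 and Snord15b joined without Asxl1-/- replicate 1, and Snora43 and Snora65 without Asxl1-/- replicate 2. Symbols under 300 bp that are no members were also called without WT replicate 1 and without Asxl1-/- replicate 1.

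**Figure D3:**
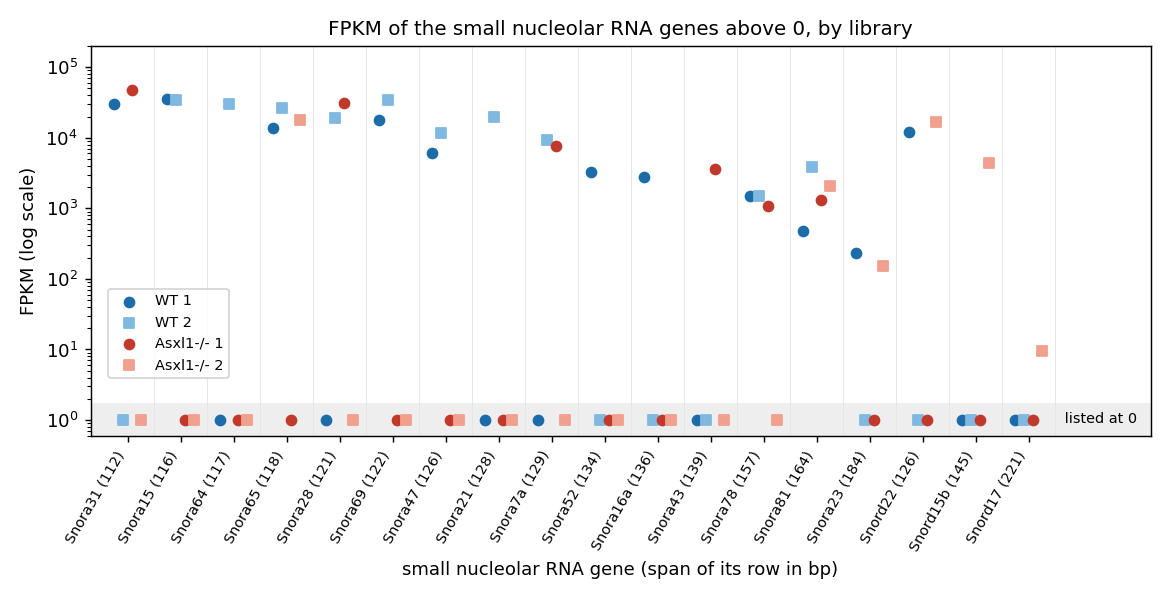
FPKM (log scale) of the 18 members above 0 in at least 1 library, with 1 point for each library and the span of the row in brackets; H/ACA members stand to the left and C/D members to the right, each by span. Points in the grey band were listed at 0. Snora15, Snora69 and Snora47 show both WT libraries high and both Asxl1-/- libraries at 0, and every other member but Snora81 has at least 1 library at 0 and 1 above it.

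The other 12 H/ACA members above 0 did not pass. Snora81 was the only member with a full set of values, at 484 and 3846 FPKM in WT and at 1303 and 2059 FPKM in Asxl1-/- (limma adjusted p = 0.961). Both Asxl1-/- values lay between the WT values, so the groups overlapped. Snora78 had WT values of 1495 and 1512 FPKM, with 1073 in the first and 0 in the second Asxl1-/- library (adjusted p = 0.704). Snora65 had WT values of 13643 and 26643 FPKM, with 0 in the first and 17940 in the second Asxl1-/- library (adjusted p = 0.725). Of these 3, only Snora78 had both Asxl1-/- libraries below both WT libraries. With Snora15, Snora69 and Snora47 that makes 4 of the 15 H/ACA members tested, against 25.2% of all genes tested, so this share is near the background.

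Snora31, whose row is the shortest with a value among the members, reached 30551 FPKM in WT replicate 1 and 47616 in Asxl1-/- replicate 1 and was at 0 in both replicates 2. Snora28 had 19168 FPKM in WT replicate 2 and 31271 in Asxl1-/- replicate 1, and Snora7a had 9223 and 7580 in the same libraries, each with 0 in the others. Snora23 had 236 FPKM in WT replicate 1 and 153 in Asxl1-/- replicate 2. In these 4 members each genotype had 1 library with a value and 1 at 0. Seen in a single library were Snora16a (2793 FPKM) and Snora52 (3227) in WT replicate 1, Snora21 (20003) and Snora64 (30036) in WT replicate 2, and Snora43 (3567) in Asxl1-/- replicate 1.

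The 3 C/D members with a value have rows of 126 to 221 bp, long for their class. Snord22, within the non-coding host gene Snhg1, had 12252 FPKM in WT replicate 1 and 16653 in Asxl1-/- replicate 2 and was at 0 in the other libraries (adjusted p = 0.996). Snord15b stood at 4407 FPKM and Snord17 at 9.57 FPKM, both in Asxl1-/- replicate 2 alone (adjusted p = 0.726 and 0.746). The groups overlapped in all 3. Of 20 snoRNAs chosen for being known by a U number or a function, 12 had a row and 3 had a value, namely Snord22, Snora7a and Snora21. The rows of Snord118, the Prader-Willi region gene Snord116 and the Rpl13a members Snord32a, Snord33, Snord34 and Snord35a were at 0 in every library. All these rows are under 111 bp, so their zeros say nothing of the level of these RNAs. The Snord118 row, of 44 bp within Rtn3, matched no GENCODE gene of that symbol and place.

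By group, 7 members were above 0 only in WT, 3 only in Asxl1-/- and 8 in both, and values above 0 numbered 21 in the WT libraries and 12 in the Asxl1-/- libraries. All 7 seen only in WT were H/ACA members, and of the 3 seen only in Asxl1-/-, 2 were C/D members. The number of members above 0 a library averaged 10.5 in WT and 6.0 in Asxl1-/- (two-sided exact permutation test over libraries, p = 0.333, the smallest p that 2 against 2 libraries can give). The library with the lowest share of FPKM in members, Asxl1-/- replicate 2, was also the shallowest, at 25300000 fragments. Asxl1-/- replicate 1 was the deepest, at 27300000 fragments, and had the next lowest share and the same number of members above 0. The part of depth and of fragment length in these zeros was not tested. In the authors' deposited table, 18 members have a group value above 0, of which 10 were tested and 8 were not for want of alignments; 0 of the 10 are marked as significant, against 0.939% of all 12881 genes tested there.

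Over all 36 H/ACA members and over all 74 C/D members the median log2 difference was 0, because most members are at 0 throughout, and over all genes tested it was -0.07. Over the tested members alone medians are set by the pseudocount and by the zeros, and none is given. Other short rows served as a background of like length: of 1074 such symbols 11 had a value, 9 were tested and 0 passed (0 also at an unadjusted p under 0.05). None of them had a value in exactly 2 libraries, as the 3 called members had. They could therefore not show that pattern, and the 0 gives no contrast with the members.

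Most host genes, unlike most snoRNAs, had values above the filter. A row of over 300 bp held the position of 101 of the 110 members, giving 74 hosts, of which 20 held more than 1 member, so members of 1 host are not independent. Snora15 lies in Cct6a, a subunit gene of the chaperonin that folds actin and tubulin, whose WT libraries were at 205 and 148 FPKM and whose Asxl1-/- libraries were at 135 and 140 (log2 difference -0.34, standard error 0.27, limma adjusted p = 0.772). Snora69 lies in the ribosomal protein gene Rpl39, with WT at 1645 and 1435 FPKM and Asxl1-/- at 1990 and 1266 (log2 difference 0.05, adjusted p = 0.981). Snora47 lies in Zbed3, with WT at 25.5 and 13 FPKM and Asxl1-/- at 13.4 and 20.5 (log2 difference -0.13, adjusted p = 0.948). The groups overlapped for Rpl39 and Zbed3 and not for Cct6a. Snhg9, the host by position of Snora78, was listed at 0 in all 4 libraries. None of the 3 hosts of called members passed, while their snoRNAs were at 0 in both Asxl1-/- libraries. Whether a fragment in a snoRNA row came from the processed snoRNA or from an unspliced host intron cannot be told apart here.

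The levels of the hosts overlapped between members with and without a value. The median of the mean FPKM was 111 over the 18 hosts of members above 0, and 23.9 over the 11 further hosts of members that had rows of 111 bp or more and were at 0. Among the latter were Rpl10 at 970 to 1720 FPKM and Rpsa at 574 to 1236 FPKM, while Snhg7, the host of Snora43, which had a value, stood at 3.12 to 4.54 FPKM. Short members were at 0 in high hosts too: Rpl23a, at 1460 to 2390 FPKM, holds Snord42a, Snord42b and Snord4a, and Rps12, at 1320 to 1710 FPKM, holds Snora33 and Snord100, all at 0.

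Between the genotypes, 0 of 69 hosts tested passed, and the median log2 difference was -0.15, with 46 of 69 lower. The median rested on single libraries, at 0.02 without Asxl1-/- replicate 2, -0.02 without WT replicate 1, -0.27 without WT replicate 2 and -0.29 without Asxl1-/- replicate 1. It was -0.04 with median ratio scaling and -0.05 with quantile normalization, where that over all genes tested was 0.026 and 0.016. At an unadjusted p under 0.05 there were 1 higher and 1 lower, against 2.51% and 5.41% of all genes tested. Snhg6, a non-coding host whose span holds Snord87, had 29.96 and 31.6 FPKM in WT and 67.3 and 68.5 FPKM in Asxl1-/-. Its log2 difference was 1.12 (standard error 0.22) and its replicates were close, yet its limma adjusted p was 0.502. Snord87 itself, with a row of 74 bp, was at 0 throughout. Ckap5, a microtubule-associated gene that holds Snord67, had WT values of 32.7 and 28.4 FPKM against 18.3 and 18.8 (log2 difference -0.69, adjusted p = 0.596).

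A further list held mostly non-coding spliced genes, many but not all of them snoRNA hosts, and also the protein-coding Snrpn and Snurf. Of this list, 19 genes were in the table and 16, Snrpn among them, were tested. None passed, 4 differences were positive and 12 negative, and the median was -0.16. That median was 0.08 without WT replicate 1, -0.08 without Asxl1-/- replicate 2, -0.33 without Asxl1-/- replicate 1 and -0.52 without WT replicate 2. Besides Snhg6, the smallest p were those of 3 neighbours of the imprinted Dlk1-Dio3 region. Mirg was at 6.20 and 4.18 FPKM (WT) and at 3.06 and 0.927 (Asxl1-/-), Rian, host of a C/D snoRNA array, at 75.6 and 45.6 against 43.7 and 23.0, and Meg3 at 82.4 and 65.7 against 63.7 and 26.0. For all 3 the groups did not overlap, with limma adjusted p of 0.632, 0.655 and 0.695. These 3 were picked by their p, and such separation was no more common in the list than among all genes. Of the 16 tested, 4 separated downwards in Asxl1-/- (25.0%) and 1 upwards (6.25%). The shares of all genes tested were 25.2% and 15.6%.

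The genes of the snoRNP core proteins were all measured and were lower on average in Asxl1-/-, with no gene past the threshold. Of 9 genes, 9 had a negative log2 difference, with a median of -0.55 against -0.07 over all genes tested. Neither Asxl1-/- library reached the lower WT value for 6 of 9, against 25.2% of all genes tested. The largest difference was that of the H/ACA protein gene Gar1, which was at 52.9 and 24.3 FPKM (WT) and at 11.7 and 14.7 (Asxl1-/-) (log2 difference -1.39, standard error 0.43, limma adjusted p = 0.572). Dkc1, the pseudouridine synthase, was at 28.1 and 15.6 FPKM (WT) and at 11.9 and 9.14 (Asxl1-/-) (log2 difference -0.94, adjusted p = 0.629). Of the other H/ACA proteins, Nop10 had 52.6 and 40.1 FPKM against 35.0 and 27.6, and Nhp2 had 56.3 and 31.1 against 36.7 and 18.7. In Nhp2 the groups overlapped.

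Among the C/D proteins the methyltransferase Fbl was at 60.5 and 34.1 FPKM (WT) and at 32.9 and 32.5 (Asxl1-/-), and Nop58 at 81.3 and 47.9 against 49.8 and 49.2. Nop56 was at 86.9 and 63.9 FPKM (WT) and at 64.1 and 34.9 (Asxl1-/-). Nhp2l1 had 112 and 77.5 FPKM against 77.4 and 60.2, and the U3 protein gene Rrp9 had 11.8 and 12.4 against 10.2 and 7.88. WT replicate 1 was the highest library for 8 of the 9 genes, all but Rrp9, and WT replicate 2 often lay close to the Asxl1-/- values. The median of the list was -0.35 without WT replicate 1, -0.32 without Asxl1-/- replicate 2 and -0.86 without WT replicate 2.

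**Figure D4:**
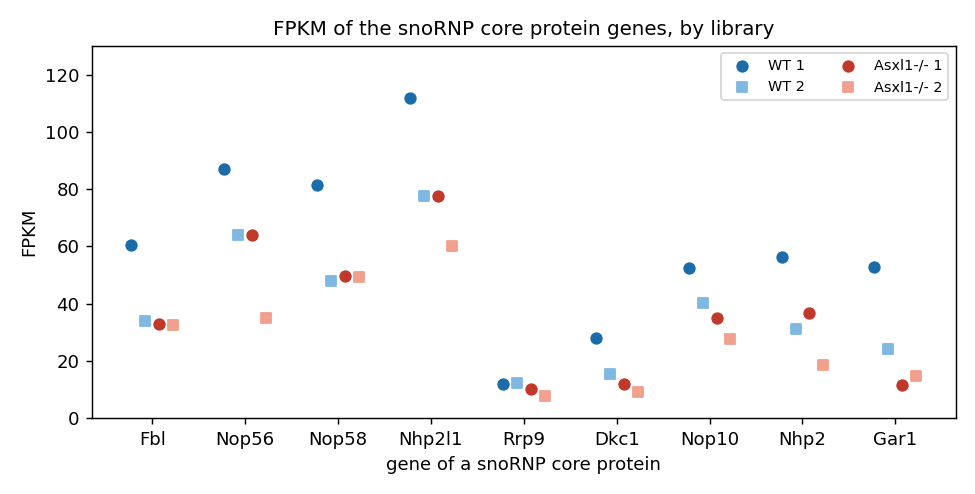
FPKM of the 9 snoRNP core protein genes (x axis, C/D and U3 proteins to the left, H/ACA proteins to the right), with 1 point for each library. WT replicate 1 lies above the other libraries for every gene but Rrp9, and Gar1 shows both Asxl1-/- libraries, at 11.7 and 14.7 FPKM, below both WT libraries.

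Assembly and maturation factors of snoRNPs had a median log2 difference of -0.34, with 17 of 22 negative and 0 past the threshold. That median was -0.12 without WT replicate 1, -0.16 without Asxl1-/- replicate 2 and -0.58 without WT replicate 2. The helicase genes Ruvbl2 (31.6 and 22.7 FPKM in WT, 13.1 and 12.9 in Asxl1-/-) and Ruvbl1 (61.1 and 38.3 against 27.1 and 26.5) had log2 differences of -0.99 and -0.83. The nucleolar factor gene Tcof1 had 23.0 and 12.5 FPKM against 6.84 and 10.8. Coil, the gene of the Cajal body protein coilin, stood higher in Asxl1-/- than in WT and was at 4.37 and 4.70 FPKM (WT) and at 6.90 and 7.78 (Asxl1-/-) (log2 difference 0.59). The limma adjusted p of these 4 were 0.552, 0.619, 0.632 and 0.632.

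Genes of ribosomal RNA synthesis and processing had a median log2 difference of -0.29, with 36 of 45 negative and 0 past the threshold. It was -0.11 without WT replicate 1, -0.16 without Asxl1-/- replicate 2 and -0.43 without WT replicate 2. Neither Asxl1-/- library reached the lower WT value for 19 of 45 (42.2%), against 25.2% of all genes tested. The ribosomal RNA methyltransferase gene Emg1 was at 65.9 and 47.8 FPKM (WT) and at 34.9 and 26.8 (Asxl1-/-) (log2 difference -0.85, limma adjusted p = 0.605). The processome gene Wdr3 had 20.1 and 11.5 FPKM against 7.89 and 7.15, the RNA polymerase I subunit gene Polr1a had 23.9 and 14.8 against 10.6 and 10.5, and Nop2, a further methyltransferase gene, had 36.7 and 27.1 against 21.8 and 18.3. In bulk samples fewer cells of a type and less RNA per cell cannot be told apart.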

How the data were processed

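The submitters' processing notes name TopHat2 (version 2.0.3) among the tools, with Cufflinks (version 2.2.1), Cuffdiff and the build mm10. Annotation, library kit and strandedness: not given in the sources used here. The authors deposited FPKM per gene and library. The authors' deposited Cuffdiff table gives group FPKM, a log2 fold change, p-values and q-values. Which libraries its groups hold was not stated in the table. The FPKM table has 2 further value columns that match no sample and were not used. A symbol with several rows kept the row with the highest mean. Starts are the file's plus 1. The fit used limma (version 3.58.1, R version 4.3.3, eBayes with a variance trend). It was tested on simulated data with a capped spread and without the zeros seen in members. That simulation therefore says nothing of the fit on the members. Tables and figures used Python (version 3.11.15). Hosts are the shortest row of over 300 bp that spans a member. Members and lists were chosen with earlier results of these data known. Named members are those past the threshold, up to 6 per class and direction at an unadjusted p under 0.05 without overlap, the 5 highest per class and 20 well known ones; named pathway genes are all snoRNP core genes, the hosts of called members and, from each other list, up to 4 with the smallest p. Further members and hosts were named after their values were seen, to account for all 18 with a value. The receptor gene steps were also chosen after seeing the data.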

Additional observations from a re-analysis of the deposited data

How the results depend on the processing

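No paired analysis was possible because the labels give the libraries no shared replicate numbers. The 3 calls over all genes, all of them H/ACA members, were the same 3 genes with pseudocounts of 0.1, 0.5 and 10, a mean of at least 5 FPKM, either rescaling, quantile normalization, eBayes without trend or robust, and summed rows. Rescaling leaves a value of 0 at 0, and each of these members has a single row. Part of this sameness was thus fixed in advance. With no filter 1 gene passed over all genes and 1 over H/ACA members (Snora15), and Snora47 and Snora69 each had an adjusted p of 0.0611. With 1 library left out, calls ran from 4 to 9 over all genes, from 4 to 5 over H/ACA members, from 0 to 1 over C/D members and from 0 to 4 over other short rows. The lone library of a group is then assumed to vary like the others. Of the 18 members tested, 6, none called, changed sign in some setting. Snora7a did so with quantile normalization (adjusted p 0.974). All 6 did so with some library left out, where adjusted p ran from 0.639 to 0.962 for Snora23, 0.679 to 0.952 for Snora28, 0.698 to 0.952 for Snora31, 0.679 to 0.952 for Snora7a, 0.416 to 0.995 for Snora81 and 0.694 to 0.952 for Snord22. Hosts and pathway lists had 0 calls in all 15 alternatives. The limit of 111 bp was read from the 4 libraries together, and its relation to depth was not tested.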
